A study of Mus musculus with 36 samples.

Results

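Globin and erythroid genes were followed as 9 named genes in sorted mouse kidney progenitors, of which 8 had a row among the 22761 genes of the deposited table and were analysed. They were the embryonic (primitive) globins Hbb-y, Hbb-bh1 and Hba-x, the adult-type globins Hbb-bs, Hbb-bt and Hba-a1, the erythroid haem enzyme gene Alas2 and the red cell anion exchanger gene Slc4a1. Hba-a2 was not analysed here. The genes were taken by name, with earlier results of these data known. The libraries were bulk RNA sequencing of 9 groups of 4, 36 in all.

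Cells of the ureteric bud (UB), progenitors of the nephron (NP) and progenitors of the stroma (SP) were sorted from kidneys of CD1 mouse embryos at embryonic day E11.5 and E12.5 (ex-fetu groups). The same cell types were derived from mouse embryonic stem cells, as iNP and iSP from the E14 line and as iUB (called eUB in the study) from a line labelled Sox9-mCherry. The study's methods also name a Sox8-mCherry line, and which of them gave the iUB cells was not settled here. NP and iNP were gated as ITGA8-high and PDGFRA-low, and SP and iSP as ITGA8-low and PDGFRA-high, after cells with CD31, EpCAM or RET had been gated out. UB cells were gated on RET and EpCAM, and iUB cells on EpCAM and mCherry. Each ex-fetu library pooled the kidneys of a litter, and each stem cell library came from a batch of embryoid bodies grown in culture without a circulation. No red cell marker was named among the gates. For UB, the sample title and the cell source give opposite stages. The stage in the title was used here, so if the cell source were right, a UB difference between stages would turn its sign, and every UB value, share, bound and same-stage comparison given for a stage would belong to the other. Reads assigned to genes ranged from 13004352 to 52535113 a library, and the level that 3 reads stand for ranged from 0.0605 to 0.223 normalised CPM (read counts scaled to a common library size), the scale of all levels below.

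Haemoglobin carries oxygen in red cells as a tetramer of alpha-type and beta-type globin chains with haem. In the mouse embryo, primitive red cells from the yolk sac make Hba-x (zeta globin), Hbb-y (epsilon-y) and Hbb-bh1 (beta-h1). Definitive red cells from the fetal liver use the adult-type alpha and beta chains. Which kind of red cell gave the adult-type RNA in these libraries was not tested. Within the primitive lineage, Hbb-bh1 is the earlier beta-type chain and Hbb-y the later. Red cells lie in and among the vessels of a developing kidney. In bulk libraries, fewer cells of a type and less RNA per cell cannot be told apart.

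On the mouse build GRCm38, Hbb-y (ENSMUSG00000052187), Hbb-bh1, Hbb-bs and Hbb-bt lie on the minus strand of chromosome 7, from 103812524 at the end of Hbb-bt to 103853216 at the start of Hbb-y. Hba-x and Hba-a1 lie on the plus strand of chromosome 11, from 32276400 to 32284465. Slc4a1 is on chromosome 11 from 102348824 to 102366203, and Alas2 is on chromosome X from 150547375 to 150570638. The coding sequences of Hbb-bs and Hbb-bt were 99.8% identical, with 1 mismatch, and those of Hba-a1 and Hba-a2 were also 99.8% identical. The division of reads within each of these near-copies is therefore uncertain. Whether reads matching both copies were counted at all is not known, as the counting program is not given. If they were not, adult-type levels would be too low and primitive shares too high, which was not tested. The primitive genes were distinct: Hbb-y and Hbb-bh1 were 76.4% identical to each other, and Hba-x and Hba-a1 64.1%.

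The 130 bases just before the RefSeq start of 5 globin genes (GRCm38.p6) are printed to set the primitive next to the adult-type promoters. Each is given 5′ to 3′ on the strand of its gene. Capitals mark, on either strand, the CACCC letters of a promoter element bound by KLF factors, the CCAAT box, the GATAA letters of a GATA factor motif and the TATAA letters of a TATA box.
Hbb-y, minus strand of chr7:103853208-103853337: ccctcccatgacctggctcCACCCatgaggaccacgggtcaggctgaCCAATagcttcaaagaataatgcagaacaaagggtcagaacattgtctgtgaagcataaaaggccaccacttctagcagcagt
Hbb-bs, minus strand of chr7:103827929-103828058: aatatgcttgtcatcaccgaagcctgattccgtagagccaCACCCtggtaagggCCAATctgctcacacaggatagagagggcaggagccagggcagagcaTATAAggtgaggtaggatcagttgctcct
Hbb-bt, minus strand of chr7:103813924-103814053: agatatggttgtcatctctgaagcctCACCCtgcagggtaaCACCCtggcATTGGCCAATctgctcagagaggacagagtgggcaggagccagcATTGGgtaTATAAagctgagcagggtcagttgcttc
Hba-x, plus strand of chr11:32276470-32276599: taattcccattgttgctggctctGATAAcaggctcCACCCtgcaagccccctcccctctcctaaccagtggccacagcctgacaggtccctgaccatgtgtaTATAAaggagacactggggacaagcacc
Hba-a1, plus strand of chr11:32283542-32283671: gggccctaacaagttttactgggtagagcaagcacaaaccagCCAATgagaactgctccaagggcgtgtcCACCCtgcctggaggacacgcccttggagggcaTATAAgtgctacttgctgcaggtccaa
All 5 windows held CACCC. All but Hba-x held CCAAT, and all but Hbb-y held TATAA. The GATAA letters were present in Hba-x alone of the 5. In Hbb-bt, a reverse-strand CCAAT ended where the next CCAAT began, so that the capitals run together there. Of 32851 mouse promoter windows of the same length, 33.7% held CACCC, 22.4% held CCAAT, 11.4% held GATAA and 12.7% held TATAA, and 0.825% held all the letters but GATAA. The match of letters is a description of these windows. Promoters of Hbb-bh1 and Slc4a1 are not shown here.

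The library numbered 1 of E12.5 UB stood apart by markers other than the globins. Its summed level of 10 nephron progenitor markers was 495, against 42.9 to 73.3 in the other E12.5 UB libraries, and its summed level of 10 stromal markers was 833, against 29.5 to 55.1. Its 12 endothelial markers summed to 163, against 23.9 to 28.7, and its 10 UB markers to 2734, against 4284 to 4496. The tests, shares, bounds, levels per kilobase and list counts that use E12.5 UB were also computed without it, and those values are given below where an order, a call or a count changed. In the other ex-fetu libraries the kidney markers followed the labels, with UB markers at 4284 or more in UB, nephron progenitor markers at 1626 or more in NP and stromal markers at 4688 or more in SP.

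All 8 genes had their highest ex-fetu group mean in SP, 7 of them at E12.5 and Hbb-bh1 at E11.5. The Hbb-bh1 means in SP were close, at 39.8 ± 38.7 CPM (SD, n = 4) at E11.5 and 38.8 ± 34.9 at E12.5. Without E11.5 SP library 4 their order turned, with 33.9 CPM per kilobase at E11.5 against 63.3 at E12.5. In E11.5 UB, Hbb-y was at 25.0, 4.26, 12.6 and 33.7 CPM in the libraries numbered 1 to 4, and in E11.5 NP at 6.08, 8.33, 7.12 and 44.4. In E11.5 SP the 4 values were 39.2, 165, 152 and 990. The UB and SP libraries did not overlap, while the highest NP library lay above the lowest SP library.

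At E12.5, Hbb-y was at 56.8, 6.01, 3.70 and 23.9 CPM in UB and at 5.57, 53.0, 2.11 and 3.96 in NP. In E12.5 SP it was at 207, 2080, 2006 and 665. Every E12.5 SP library was above every UB and NP library of the same stage. The spread within a group was wide, since the highest Hbb-y library was between 7.30 and 25.2 times the lowest in the 6 groups.

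**Figure D1:**
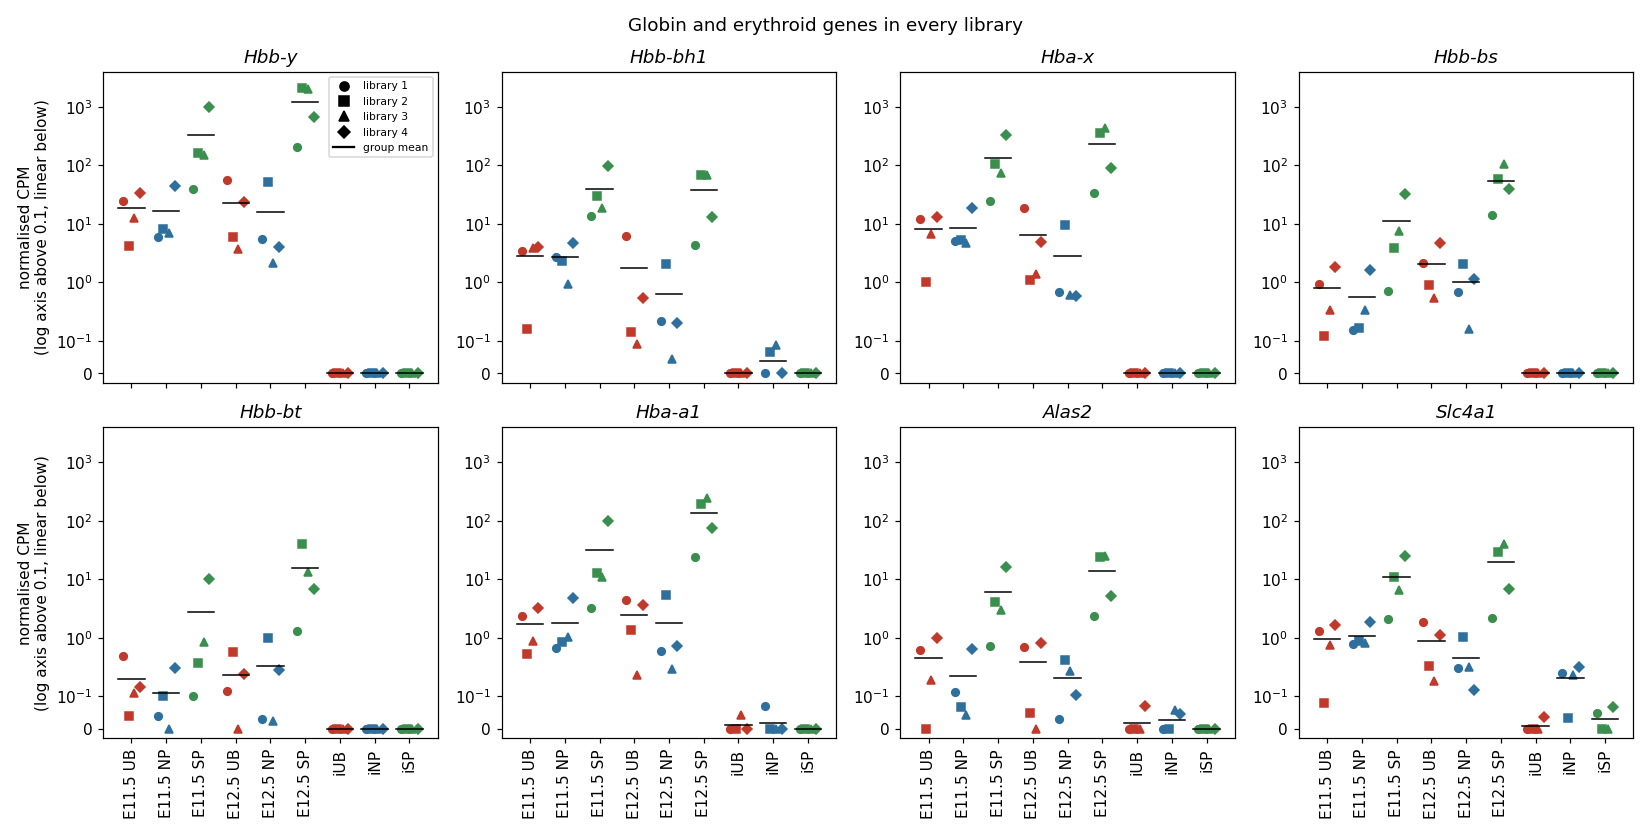
Normalised CPM of the 8 genes in the 36 libraries, on an axis that is logarithmic above 0.1 and linear below, with a marker shape for each library number and a line at the group mean. Hbb-y reached 2080 in an E12.5 SP library and was at 0 in all 12 stem cell derived libraries.

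Hba-x, the embryonic alpha-type chain, was also highest in SP. It was at 12.3, 1.005, 6.69 and 13.0 CPM in E11.5 UB, at 5.14, 5.37, 4.65 and 18.7 in NP and at 24.8, 107, 73.4 and 335 in SP. At E12.5 it was at 19.0, 1.09, 1.42 and 4.88 in UB, at 0.677, 9.44, 0.611 and 0.592 in NP and at 33.5, 363, 433 and 92.1 in SP. SP lay above UB and NP in every library at both stages, and UB and NP overlapped.

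Hbb-bh1, the earlier embryonic beta-type chain, was at 13.6, 29.9, 18.8 and 97.0 CPM in E11.5 SP and at 4.33, 67.9, 69.8 and 13.2 in E12.5 SP. It was at 3.46, 0.161, 3.81 and 3.98 in E11.5 UB and at 2.69, 2.32, 0.938 and 4.75 in E11.5 NP. At E12.5 it was at 6.26, 0.142, 0.0914 and 0.531 in UB and at 0.215, 2.06, 0.0453 and 0.206 in NP. The E12.5 UB value of 6.26 came from the library that stood apart, and it was above the lowest E12.5 SP value.

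Among the adult-type genes, Hba-a1 was at 3.27, 12.7, 11.0047 and 99.6 CPM in E11.5 SP and at 23.9, 197, 245 and 76.7 in E12.5 SP. In UB and NP it lay between 0.229 and 5.42 at both stages. The near-copies Hbb-bs and Hbb-bt were read as a sum, which would not restore reads left uncounted. The sum was 0.801, 4.25, 8.26 and 42.7 CPM in E11.5 SP and 15.4, 97.8, 118.6 and 45.6 in E12.5 SP. The E11.5 SP mean of 13.99 ± 19.3 (SD, n = 4) fell to 4.44 ± 3.73 without library 4, and the E12.5 SP mean was 69.4 ± 47.3. In UB the sum was 0.998 ± 0.835 at E11.5 and 2.33 ± 1.93 at E12.5, or 1.44 ± 0.87 without E12.5 library 4. In NP it was 0.680 ± 0.825 at E11.5, or 0.268 ± 0.0732 without library 4, and 1.34 ± 1.24 at E12.5, or 0.768 ± 0.619 without library 2.

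Alas2, which encodes the first enzyme of haem synthesis in red cells, was at 0.734, 4.04, 3.02 and 16.4 CPM in E11.5 SP and at 2.38, 23.99, 25.0 and 5.09 in E12.5 SP. It did not reach 1 in any UB or NP library. Slc4a1, the chloride-bicarbonate exchanger of the red cell membrane (band 3), was at 2.07, 10.9, 6.44 and 25.2 in E11.5 SP and at 2.17, 29.2, 40.3 and 6.74 in E12.5 SP. In UB and NP it lay between 0.0804 and 1.85.

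Per kilobase of exon, Hbb-y had the highest mean in every ex-fetu group and Hba-x the next. The place of Hba-x rested on 1 library in E12.5 UB and in E12.5 NP. Without UB library 1 the levels per kilobase were 2.704 ± 3.06 CPM (SD, n = 3) for Hbb-bs and 2.62 ± 2.24 for Hba-x, and without NP library 2 they were 0.854 ± 0.634 and 0.668 ± 0.0477. Without any other ex-fetu library the first and second places did not change. In E12.5 SP the levels per kilobase were 1958 ± 1496 CPM (SD, n = 4) for Hbb-y, 246 ± 210 for Hba-x, 167 ± 127 for Hba-a1, 70.4 ± 50.4 for Hbb-bs and 63.3 ± 56.9 for Hbb-bh1. In E11.5 SP they were 531 ± 694 for Hbb-y, 144 ± 147 for Hba-x, 64.9 ± 63.1 for Hbb-bh1, 39.0 ± 56.0 for Hba-a1 and 14.6 ± 19.0 for Hbb-bs. Hbb-bh1 thus stood above Hba-a1 and Hbb-bs in the E11.5 means and below both in the E12.5 means, with SDs as large as most of these differences. Hbb-bt, Alas2 and Slc4a1 were lower, at 21.8 ± 24.6, 5.87 ± 5.01 and 4.01 ± 3.71 in E12.5 SP.

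Within a group, the libraries with more of 1 gene mostly held more of the others. E12.5 UB was an exception, where library 1 was the highest for Hbb-y, Hba-x, Hbb-bh1, Hba-a1 and Slc4a1, library 4 for Hbb-bs and Alas2 and library 2 for Hbb-bt. Over the 24 ex-fetu libraries, the 28 pairs of genes had Pearson correlations of log2(CPM + 1) from 0.757 to 0.983 with a median of 0.930. After the group means were taken out, the correlations ran from 0.673 to 0.972 with a median of 0.857. These are descriptions over libraries that share groups and may share litters. The 6 globins summed to 0.0079% to 0.146% of all values in E11.5 SP and to 0.0283% to 0.279% in E12.5 SP, and to at most 0.00944% in any UB or NP library.

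The number of the library recurred across cell types at E11.5. The library numbered 4 had the highest globin sum in UB, NP and SP, at 55.9, 74.5 and 1564 CPM. At E12.5 the highest sums were in library 1 of UB (88.8), library 2 of NP (73.0) and library 3 of SP (2873). In all 4 same-numbered pairs of NP and SP, at E11.5 and at E12.5, SP was above NP for each of the 8 genes. At E12.5 the NP and SP groups did not overlap for any of the 8, so any pairing gives this. At E11.5 the library numbers were not shown to pair. The count is therefore a description and not a support.

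Against SP of the same stage, the levels in UB and NP were lower. These fits used limma on log2(CPM + 1) over all genes that reached 1 CPM in at least 4 of the 8 libraries, and a gene was called at a Benjamini-Hochberg adjusted p below 0.05. Log2 fold changes understate the change of low genes on this scale. At E12.5, Hbb-y was lower in NP than in SP by a log2 difference of -6.66 ± 0.97 (SE, limma adjusted p = 0.00054) and lower in UB by -5.89 ± 0.94 (limma adjusted p = 0.00074). Hba-a1 was lower in NP by -5.50 ± 0.75 (limma adjusted p = 0.00034) and in UB by -5.07 ± 0.74 (limma adjusted p = 0.00044). The haem enzyme gene Alas2 was lower in NP by -3.17 ± 0.61 (limma adjusted p = 0.0029). All 8 genes were called lower in both fits, beside 17.8% of the genes tested called lower in NP against SP and 21.8% in UB against SP. At E12.5 the SP libraries alone carried each of the 8 past the filter, so this count is a description and not a support. Without the library that stood apart, UB was lower for all 8 genes as well, with Hbb-y at -6.54 ± 0.87 (limma adjusted p = 0.00028).

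At E11.5, 6 genes passed the filter in each fit, most of them only with the SP libraries, and all 6 were called lower, beside 22.2% of the genes tested called lower in NP against SP and 26.7% in UB against SP. As at E12.5, this count is a description and not a support. Hbb-y was lower by -3.83 ± 0.90 in NP (limma adjusted p = 0.0072) and by -3.48 ± 0.88 in UB (limma adjusted p = 0.0067). Hbb-bh1 was lower by -3.16 ± 0.55 in NP (limma adjusted p = 0.0013) and by -3.20 ± 0.62 in UB (limma adjusted p = 0.0014). Hba-a1 and Hbb-bs were called by a narrow margin. In NP against SP, Hba-a1 had a limma adjusted p of 0.024, which ran from 0.00095 to 0.062 over the alternatives and passed 0.05 without NP library 1, 2 or 3. Hbb-bs had a limma adjusted p of 0.036 in NP, and it lost its call without NP library 1, 2 or 3 or SP library 3. In UB its adjusted p of 0.039 lost the call without the low-value filter and without UB library 1, 2 or 3 or SP library 3, reaching up to 0.10.

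UB and NP did not differ by the test. Of the genes, 4 were tested at E11.5 and 4 at E12.5, and limma called 0 at each stage, with 0 at an unadjusted p under 0.05 and 0 by edgeR on the recovered reads. Without the library that stood apart, limma called 0 of the 4 at E12.5 as well, with adjusted p from 0.51 to 0.94. Of all genes tested, 60.2% and 32.7% were called between UB and NP at the same stages. An unadjusted p under 0.05 was found for 8882 of 13962 genes at E11.5 and 5887 of 13910 at E12.5.

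**Figure D2:**
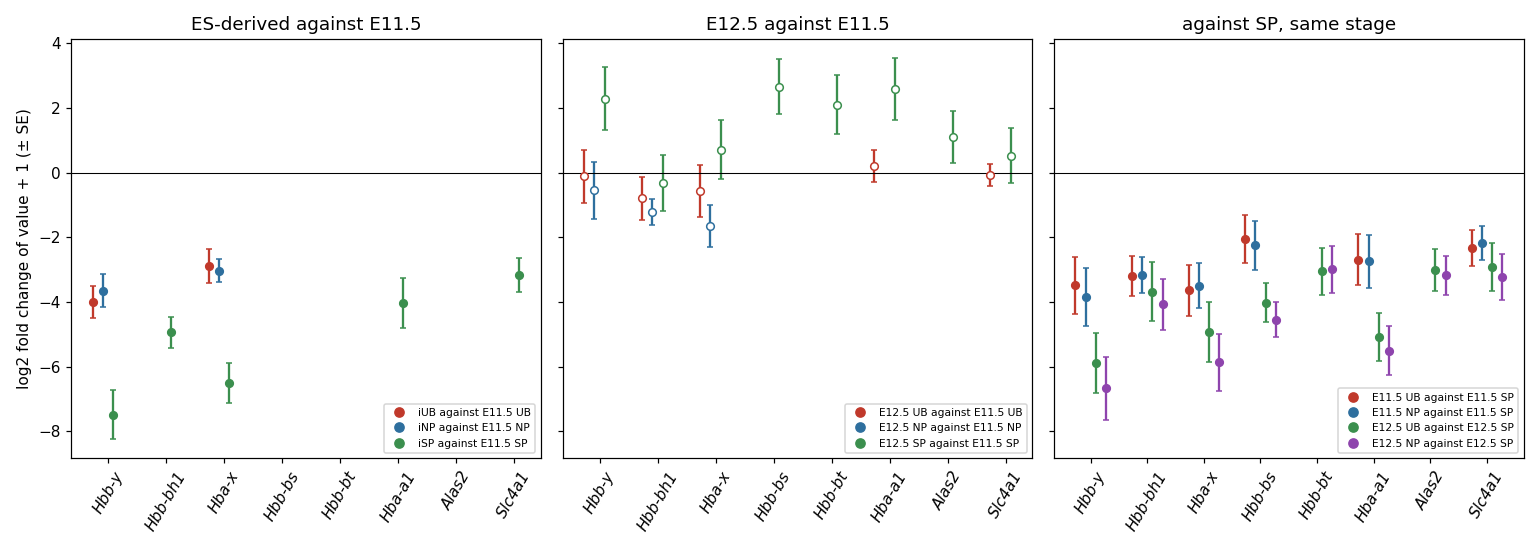
Log2 fold changes of CPM + 1 from limma with standard errors, for the genes that passed the filter. Filled points were called and open points were not. The values against SP are all below 0 and called, and those of E12.5 against E11.5 are all open.

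Between E11.5 and E12.5 no member was called, and in SP Hbb-bs and Hba-a1 had the highest estimates. In SP, Hbb-bs was higher at E12.5 by a log2 difference of 2.66 ± 0.85 (limma adjusted p = 0.085), Hba-a1 by 2.60 ± 0.96 (limma adjusted p = 0.13) and Hbb-bt by 2.11 ± 0.91 (limma adjusted p = 0.19). Hbb-y was higher by 2.29 ± 0.97 (limma adjusted p = 0.18), Hba-x by 0.72 ± 0.91 and Hbb-bh1 was at -0.31 ± 0.86. Both groups overlapped for each of the 8 genes. All 8 passed the filter, and 4 had an unadjusted p under 0.05 by limma, beside 3278 of the 13633 genes tested. By edgeR on the recovered reads, 0 were called and 1 had an unadjusted p under 0.05. Of all genes tested, limma called 8.52%.

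The calls of these SP estimates turned on the setting and on single libraries. When all 36 libraries were fitted together, Hbb-bs, Hbb-bt and Hba-a1 were called, with limma adjusted p of 0.00063, 0.0035 and 0.0045. With the library number as a block, Hbb-bs was called (limma adjusted p = 0.028). Without E11.5 SP library 4, Hbb-y was at 3.12, Hbb-bs at 3.42 and Hba-a1 at 3.47, with limma adjusted p of 0.043, 0.015 and 0.021. Without E12.5 SP library 1, Hbb-bs was at 3.17, Hba-a1 at 3.26 and Hbb-bt at 2.82, with limma adjusted p of 0.031, 0.037 and 0.042. The adjusted p ran from 0.00063 to 0.22 for Hbb-bs, from 0.0045 to 0.30 for Hba-a1, from 0.0035 to 0.39 for Hbb-bt and from 0.043 to 0.40 for Hbb-y over all alternatives.

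In NP, 3 genes were tested between the stages and 0 were called, beside 6.34% of all genes tested. Of the 3, 2 had an unadjusted p under 0.05, beside 3188 of the 13414 genes tested. Hba-x was at -1.65 ± 0.64 (limma adjusted p = 0.15) and Hbb-bh1 at -1.22 ± 0.39 (limma adjusted p = 0.099). Without E12.5 NP library 2, which held the highest globin sum of its group, both were called, with Hba-x at -2.32 (limma adjusted p = 0.017) and Hbb-bh1 at -1.57 (limma adjusted p = 0.026). Over all alternatives the adjusted p ran from 0.017 to 0.32 for Hba-x and from 0.026 to 0.23 for Hbb-bh1.

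In UB, 5 genes were tested between the stages and 0 were called, and 0 by edgeR, beside 26.5% of all genes tested. Of the 5, 0 had an unadjusted p under 0.05, beside 5374 of the 13772 genes tested. Hbb-bh1 was at -0.79 ± 0.67 (limma adjusted p = 0.41). Without the library that stood apart it was at -1.43 ± 0.42 (limma adjusted p = 0.015, over a range of 0.015 to 0.70), and 43.8% of all genes tested were called. Whether the change from E11.5 to E12.5 differed between cell types was tested with an interaction term. It called 0 of the 8 genes between NP and SP, 0 of 8 between UB and SP and 0 of 6 between UB and NP, beside 2.69%, 4.24% and 2.21% of all genes. With an unadjusted p under 0.05 were Hba-a1 and Hbb-bs in NP against SP, beside 1892 of the 14438 genes tested there.

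The primitive and adult-type globins were next compared within each library, as shares of the alpha-type or the beta-type values. Shares leave out the total globin of a library by construction, but could still vary with it. In E11.5 NP and SP, library 4 had the most globin and the lowest alpha-type share. In E12.5 SP, libraries 2 and 3 had the most globin and the highest alpha-type shares. The shares rest on few reads in UB and NP. They are sums over chosen genes and were given no test. Of the alpha-type values, Hba-x made up 79.6 ± 9.79% (SD, n = 4) in E11.5 UB, 84.2 ± 4.01% in NP and 85.4 ± 5.67% in SP. At E12.5 it made up 67.2 ± 19.7% in UB, or 62.7 ± 21.4% without the library that stood apart, 57.4 ± 10.1% in NP and 60.4 ± 4.82% in SP. Hba-a2 is not among these values.

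The stages were apart in NP and SP and overlapped in UB. In E11.5 NP the alpha-type share was 88.6%, 86.5%, 82.0% and 79.9%, and in E12.5 NP 53.7%, 63.5%, 67.5% and 45.1%. In SP it was 88.3%, 89.4%, 87.0% and 77.1%, against 58.3%, 64.9%, 63.8% and 54.6%. In UB it was 83.7%, 65.8%, 88.5% and 80.3%, against 80.8%, 44.2%, 86.1% and 57.7%. The value of 86.1% rests on 36 alpha-type reads and has a 95% Wilson interval of 71.3% to 93.9%. Intervals cover counting error only, and the widest alpha-type interval spanned 29.2 percentage points.

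Of the beta-type values, Hbb-y and Hbb-bh1 together made up 96.0 ± 1.068% in E11.5 UB, 96.9 ± 0.93% in NP and 97.0 ± 1.44% in SP. At E12.5 they made up 86.9 ± 6.97% in UB, or 83.7 ± 3.37% without the library that stood apart, 87.7 ± 8.99% in NP and 94.3 ± 1.075% in SP. In NP all E12.5 libraries, at 89.1%, 94.8%, 92.2% and 74.7%, were below the lowest E11.5 library at 95.9%. In SP the lowest E11.5 library was at 95.4% and the highest E12.5 library at 95.6%. With Hbb-bh1 left out, the group means moved by less than 1 SD in all 6 groups.

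The stages also differed in the make-up of the primitive beta-type chains, with no test. Hbb-bh1 made up 30.7%, 21.8%, 11.6% and 9.67% of the Hbb-y and Hbb-bh1 values in E11.5 NP, and 3.72%, 3.74%, 2.11% and 4.94% in E12.5 NP. In SP it made up 25.8%, 15.3%, 10.997% and 8.92%, against 2.05%, 3.16%, 3.36% and 1.95%. Neither cell type overlapped between the stages. The order of the 4 library numbers was the same in E11.5 NP and E11.5 SP, with library 1 highest and library 4 lowest. In UB the share was 12.1%, 3.64%, 23.2% and 10.6%, against 9.94%, 2.31%, 2.41% and 2.17%. The value of 9.94% was that of the library that stood apart, and without it the E12.5 UB mean was 2.30 ± 0.12% in place of 4.21 ± 3.82%. The remaining 3 E12.5 UB libraries lay below all 4 E11.5 UB libraries.

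**Figure D3:**
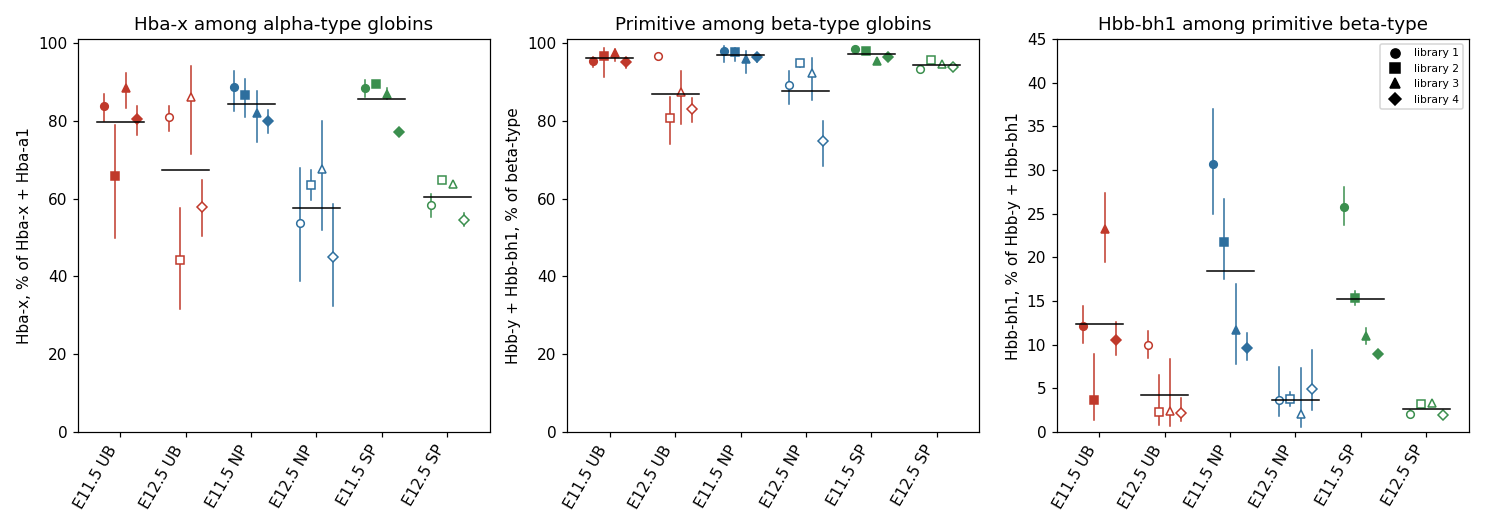
Shares of primitive globins by library in percent, for alpha-type genes, beta-type genes and Hbb-bh1 within the primitive beta-type pair, with 95% Wilson intervals and a line at each group mean. Filled points are E11.5 and open points E12.5. The Hbb-bh1 share lies between 8.92% and 30.7% in E11.5 NP and SP and between 1.95% and 4.94% in E12.5 NP and SP.

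**Figure D4:**
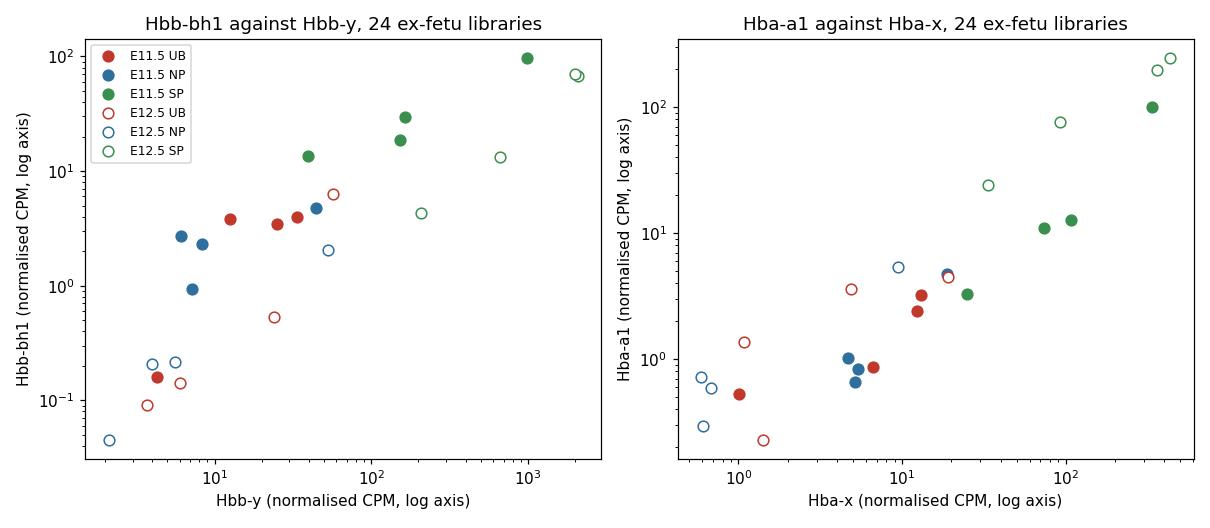
Hbb-bh1 against Hbb-y and Hba-a1 against Hba-x in the 24 ex-fetu libraries, in normalised CPM on log axes. At a like level of Hbb-y, most E12.5 libraries (open) hold less Hbb-bh1 than E11.5 libraries (filled), and the open UB point among the filled ones is the library that stood apart.

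In the stem cell derived groups globin RNA was at or near 0. Of all globin reads, the 4 iUB libraries held 0, 0, 1 and 0, the iNP libraries 2, 2, 3 and 0, and the iSP libraries 0, 0, 0 and 0. Hbb-y, Hbb-bs, Hbb-bt and Hba-x had no read in any of the 12 libraries, which allows up to 3 reads each. Hbb-bh1 had 2 and 3 reads in 2 iNP libraries, and Hba-a1 had 1 read in iUB and 2 in iNP. Slc4a1 was detected above 3 reads only in iNP, with 7, 8 and 14 reads in the libraries numbered 1, 3 and 4, at 0.246, 0.234 and 0.319 CPM.

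Against the level of 3 reads per library, the fold by which an ex-fetu group mean lay above its derived group could be bounded from below. Some bounds rested on 1 ex-fetu library, so each was also computed without each of the 4 in turn, and the lowest value is given beside it. Hbb-y was at least 2896-fold higher in E11.5 SP than in iSP, or 1021-fold without library 4, and at least 10673-fold higher in E12.5 SP, or 8261-fold without library 2. For UB against iUB the Hbb-y bounds were 134-fold at E11.5, or 98.9-fold without library 4, and 160-fold at E12.5, or 79.4-fold without library 1. For NP against iNP they were 183-fold at E11.5, or 79.7-fold without library 4, and 179.5-fold at E12.5, or 43.1-fold without library 2.

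For Hba-x the bounds in SP were 1162-fold at E11.5, or 589-fold without library 4, and 1983-fold at E12.5, or 1401-fold without library 3. In UB they were 58.5-fold at E11.5, or 47.2-fold without library 4, and 46.7-fold at E12.5, or 17.4-fold without library 1. In NP they were 94.2-fold at E11.5, or 56.2-fold without library 4, and 31.4-fold at E12.5, or 6.96-fold without library 2. For Alas2 in SP they were 52.1-fold at E11.5, or 22.4-fold without library 4, and 121-fold at E12.5, or 90.3-fold without library 3.

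Limma called Hbb-y lower in iSP than in E11.5 SP by a log2 difference of -7.48 ± 0.76 (adjusted p = 2.1e-05), in iNP than in E11.5 NP by -3.64 ± 0.50 (adjusted p = 0.00015) and in iUB than in E11.5 UB by -3.99 ± 0.48 (adjusted p = 6.8e-05). Against E12.5 the differences were -9.77 ± 0.63 in iSP (adjusted p = 1.65e-06), -3.10 ± 0.72 in iNP (adjusted p = 0.0060) and -3.88 ± 0.69 in iUB (adjusted p = 0.0020). Against E12.5 UB without the library that stood apart, Hbb-y was at -3.23 ± 0.49 in iUB (limma adjusted p = 0.00075). With the derived libraries at 0, a gene could pass the filter through the ex-fetu libraries alone, so the number passing supports nothing. Those passing and called lower were 2 in iUB, 2 in iNP and 5 in iSP against E11.5, beside 28.5%, 29.2% and 32.1% of the genes tested called lower. Against E12.5 they were 2, 1 and 8, beside 21.2%, 18.7% and 28.8%. With no filter, limma called 6, 5 and 7 of the 8 lower against E11.5, beside 21%, 20.8% and 24.9%. Against E12.5 it called 5, 2 and 8, beside 14.8%, 13.2% and 21.3%. Among iUB, iNP and iSP themselves, no member passed the filter. With no filter, limma called 1 member, Slc4a1 lower in iUB than in iNP, beside 21.2% of the genes tested called lower.

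Whether the step from E11.5 to the derived cells differed between cell types was tested with an interaction term in limma. It called 6 of the 6 genes tested for NP against SP and 5 of 6 for UB against SP, each with the larger fall in SP, beside 17.4% and 24.2% of all genes. For UB against NP it called 0 of 4, beside 47.1% of all genes. As the derived libraries were at or near 0, these terms carry the E11.5 levels and are no evidence beside them.

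The other genes of the red cell programme were read from lists of transcription factors, haem and iron genes, membrane genes and cytosolic genes. Of 18 erythroid genes picked from these lists after their values were seen, 12 had their highest group mean in E12.5 SP and 2 in E11.5 SP. As the picks followed the values, this count supports nothing. The other 4 were Klf1, which encodes an activator of beta-globin and was highest in iUB at 0.510 ± 0.208 CPM, Nfe2, highest in E12.5 NP at 5.59 ± 1.72, Tspo2, highest in E11.5 UB at 0.134 ± 0.130, or 0.0775 ± 0.0809 without library 3, which is below its iNP mean, and Icam4, highest in iNP at 0.119 ± 0.0597. The places of Nfe2 and Icam4 are not firm either. Nfe2 ranged from 3.29 to 7.43 in E12.5 NP and from 4.33 to 5.77 in E11.5 NP. Icam4 ranged from 0.0352 to 0.164 in iNP and from 0.0308 to 0.206 in E12.5 NP. The blood group gene Kel was at 0.958 ± 0.685 CPM (SD, n = 4) in E11.5 SP and 1.88 ± 1.56 in E12.5 SP, against at most 0.284 in any UB or NP library. The erythroid master factor gene Gata1 was at 0.186 ± 0.120 and 0.341 ± 0.317 in SP, with 27 and 38 reads in the 4 libraries of each group, and at 0.199 ± 0.174 in E12.5 SP without library 3. Gata1 had no read in any of the 12 derived libraries.

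**Figure D5:**
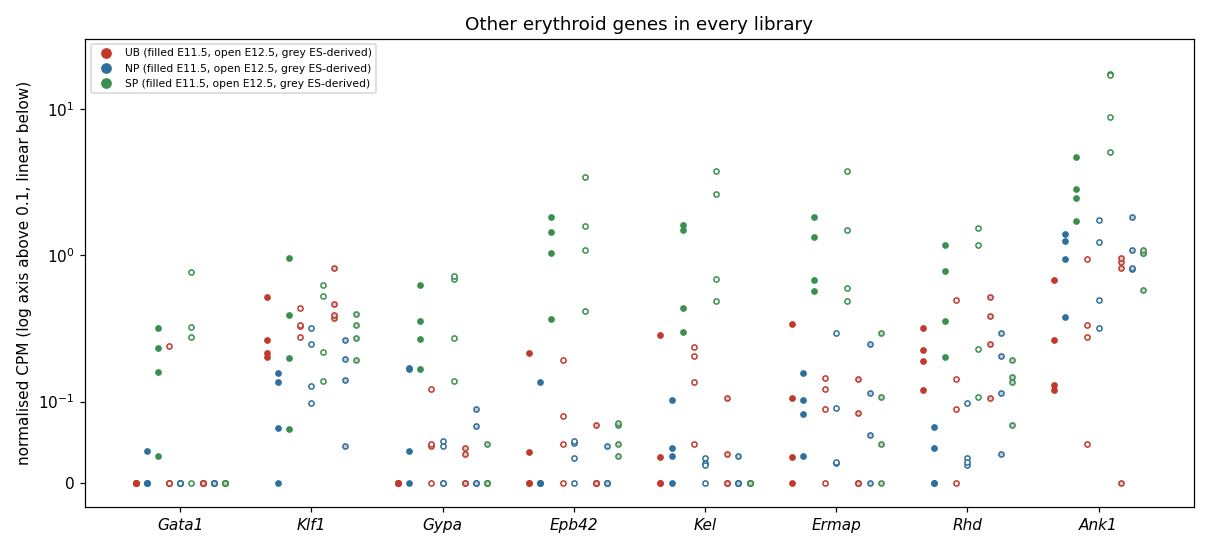
Normalised CPM of 8 further erythroid genes in each library, on an axis that is logarithmic above 0.1 and linear below, where red is UB, blue NP and green SP. Epb42, Kel, Ermap and Ank1 have their highest values in SP libraries, and Klf1 has its highest group mean, 0.510, in iUB.

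Of the 16 red cell membrane genes, 7 were tested between NP and SP at E12.5, with 3 lower and 1 higher, beside 17.8% of all genes tested called lower and 17% called higher. Their median log2 difference was -0.24, beside 0.05 over all genes. Ank1, which encodes the ankyrin that anchors Slc4a1 to the membrane skeleton, was at 12.01 ± 6.04 CPM in E12.5 SP, 2.92 ± 1.25 in E11.5 SP, 0.399 ± 0.382 in E12.5 UB, or 0.218 ± 0.150 without the library that stood apart, and 0.934 ± 0.237 in iSP. Over the SP libraries its order was not that of the globins. In E11.5 SP it was lowest, at 1.72, in library 4, where the globin sum was highest. In E12.5 SP both were lowest in library 1 and highest in library 3. There Ank1 was at 16.9 in library 4 and 8.79 in library 2, which held more globin. Ank1 was higher at E12.5 than at E11.5 in SP by 1.64 ± 0.36 (limma adjusted p = 0.024). It was lower in iSP than in E12.5 SP by -2.62 ± 0.33 (limma adjusted p = 0.00010) and in E12.5 UB than in E12.5 SP by -3.12 ± 0.36 (limma adjusted p = 0.00011). Slc2a1, the glucose transporter of the red cell and many other cells, was higher in iNP than in E11.5 NP by 2.88 ± 0.09 (limma adjusted p = 2.7e-08). Against E11.5 SP, iSP had 3 of 7 membrane genes higher and 3 lower, beside 35.5% of all genes tested called higher and 32.1% called lower, with a median of -0.21 beside 0.04. In iNP 3 of 7 were higher and 2 lower, beside 35.5% and 29.2%, and in iUB 3 of 6 were higher and 2 lower, beside 32.1% and 28.5%, with medians of 0.11 and 0.59.

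Of the 16 cytosolic and receptor genes, 10 were tested between iSP and E11.5 SP, with 3 higher and 3 lower, beside the same 35.5% and 32.1%, and a median of -0.16, beside 0.04 over all genes. Of the 10 tested in iUB, 8 were higher and 1 lower, beside 32.1% and 28.5% of all genes, with a median of 0.58 beside 0.02. In iNP 4 of 10 were higher and 2 lower, beside 35.5% and 29.2%, with a median of 0.28 beside 0.07. Epor, the erythropoietin receptor gene, was at 16.6 ± 2.17 CPM in E11.5 SP and 17.1 ± 1.92 in E12.5 SP, against 1.52 ± 0.40 in iSP. It was lower in iSP than in E11.5 SP by -2.81 ± 0.14 (limma adjusted p = 3.8e-07). Its spread within SP was far narrower than that of the globins. Blvrb, the biliverdin reductase of red cells and other tissues, was higher in iNP than in E11.5 NP by 2.80 ± 0.15 (limma adjusted p = 5.2e-07).

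Of the 14 haem and iron genes, 14 were tested between iSP and E11.5 SP, with 3 higher and 6 lower, beside the same 35.5% and 32.1%. Between iUB and E11.5 UB 13 were tested, with 4 higher and 4 lower, beside 32.1% of all genes tested called higher and 28.5% called lower. In iNP 4 of 13 were higher and 5 lower, beside 35.5% and 29.2%. Tfrc, the transferrin receptor gene, was higher in iUB than in E11.5 UB by 2.22 ± 0.08 (limma adjusted p = 5.1e-08). Between E11.5 and E12.5 limma called 0 of 13 genes of this list in NP and 0 of 14 in SP, beside 6.34% and 8.52% of all genes tested called in either direction. In UB, 3 of 13 were higher at E12.5 and 2 lower, beside 14.2% and 12.3% of all genes tested, with Tfrc higher by 0.88 ± 0.09 (limma adjusted p = 0.00061). Without the library that stood apart, 5 were higher and 2 lower, beside 24.7% and 19.1%, with Tfrc higher by 0.96 ± 0.07 (limma adjusted p = 8.5e-07). The list medians in the derived cells against E11.5 were -0.21 in iSP, 0.14 in iNP and -0.07 in iUB, beside 0.04, 0.07 and 0.02 over all genes.

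Of the 12 transcription genes, 7 were tested between E12.5 SP and E11.5 SP, with 3 lower and none higher, beside 4.8% of all genes tested called lower and 3.73% called higher. Their median was -0.71, beside -0.00052 over all genes. Sox6 and Zfpm1, which encode a repressor of embryonic globin and the GATA cofactor FOG-1, fell by 2.20 ± 0.23 (limma adjusted p = 0.0018) and 1.84 ± 0.36 (limma adjusted p = 0.015) on the log2 scale. Both genes were expressed in cells without much globin, with Sox6 at 40.6 ± 2.38 CPM and Zfpm1 at 221 ± 10.9 in E11.5 UB. In the same comparison 7 of the 10 UB markers were called lower, with a median of -1.60 and sums of 142 to 308 in E11.5 SP and 83.9 to 121 in E12.5 SP. Of the 10 nephron progenitor markers 4 were lower and 1 higher, with a median of -0.71 and sums of 152 to 228 and 123 to 155. The part of UB or nephron cells in the fall of Sox6 and Zfpm1 was not tested. In NP 2 of 7 were lower at E12.5 and none higher, beside 3.59% and 2.74% of all genes tested, with a median of 0.07 beside 0.02. In UB 1 of 9 was higher and 1 lower, beside 14.2% and 12.3% of all genes, or 3 and 2 without the library that stood apart, beside 24.7% and 19.1%. Against E11.5, 1 of 8 was higher and 6 lower in iUB, 4 of 8 higher and 4 lower in iNP and 1 of 6 higher and 3 lower in iSP, with medians of -0.65, -0.03 and -0.63, beside the shares of all genes given above for these comparisons. Myb, a factor of blood progenitors and epithelia, was lower in iNP than in E11.5 NP by -1.58 ± 0.11 (limma adjusted p = 2.6e-06). The other genes of the globin loci were at or near 0, with 2 of 7 in the table and sums of at most 2.01 CPM. Of the anion exchanger relatives Slc4a2 and Slc4a3, neither was called between the stages. Without the library that stood apart both were higher in E12.5 UB than in E11.5 UB, Slc4a2 by 0.48 ± 0.07 (limma adjusted p = 0.00017) and Slc4a3 by 0.30 ± 0.10 (limma adjusted p = 0.031). Against E11.5 NP both were lower in iNP, Slc4a3 by -0.97 ± 0.27 (limma adjusted p = 0.0095) and Slc4a2 by -0.47 ± 0.16 (limma adjusted p = 0.028). Against E12.5 SP both were lower in iSP, Slc4a3 by -1.42 ± 0.38 (limma adjusted p = 0.0084) and Slc4a2 by -0.50 ± 0.12 (limma adjusted p = 0.0055). Slc4a2 was also lower in iSP than in E11.5 SP and in iNP than in E12.5 NP, and higher in iUB than in E11.5 UB by 0.32 ± 0.08 (limma adjusted p = 0.0058).

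Macrophage markers were higher in UB than in SP, unlike the globins. The 12 macrophage markers summed to 83.6 to 145 CPM in E11.5 UB and 68.4 to 118 in E12.5 UB, against 4.63 to 9.19 in E11.5 SP and 3.79 to 20.7 in E12.5 SP. The 6 megakaryocyte and platelet markers with a row summed to 4.39 to 6.72 in E11.5 UB, 0.469 to 1.99 in NP and 2.57 to 4.67 in SP. At E12.5 these sums were 3.32 to 7.97 in UB, 0.245 to 1.60 in NP and 3.53 to 7.69 in SP, where UB and SP overlapped. The 12 endothelial markers summed to 33.0 to 46.6 in E11.5 UB, 22.9 to 60.7 in NP and 48.5 to 88.1 in SP, where the highest was library 4, also the highest in globin. At E12.5 they summed to 23.9 to 163 in UB, with 28.7 the highest outside the library that stood apart, 26.0 to 56.6 in NP and 41.1 to 56.3 in SP. SP thus lay above UB at both stages without that library, as for the globins. In iNP the endothelial sum was 106 to 190 and in iSP 70.3 to 103, where globins were at or near 0. The part of red cells or of vessels left in a sort in the SP values was not tested.

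Genes that followed the globin sum most closely were sought over all genes that reached the filter. Over the 36 libraries the highest Pearson correlations of log2(CPM + 1) were 0.927 for Klf9, 0.907 for Fam107b and 0.904 for Nfatc1, followed by AI504432, Vnn1, Kcna3, Ptrf and Itgav down to 0.882, of 15993 genes ranked. Klf9 was at 59.9 CPM on average in E12.5 SP and 3.94 in iSP. With the group means taken out, over the 24 ex-fetu libraries, the highest were 0.822 for Rab31, 0.812 for Lipo1 and 0.798 for Sparc, followed by Cxx1b, Klf9, Msn, Gpm6b and Emp2 down to 0.772, of 15252 genes ranked. Klf9 was in both sets, and none of these genes was in an erythroid list. The members were left out of the ranking.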

How the data were processed

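Messenger RNA of sorted cells was sequenced by the authors as stranded libraries and aligned with STAR after trimming with Cutadapt. The submitters' notes name the human build GRCh38, although the gene identifiers are mouse. The counting program, strand setting and annotation release are not given in the sources used here. The authors deposited a normalised signal per gene, in CPM scaled with edgeR. Each library's values were whole multiples of 1 read (100% within 0.01), so reads were recovered. An extended table with the authors' means and comparisons was not used.

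Members were matched by gene name, and 99.5% of identifiers matched GENCODE vM21 (GRCm38), which gave positions and exon lengths. Promoters were RefSeq's. Coding sequences were the longest open reading frames. Members and lists were chosen with earlier results of these data known. Other list genes were named by the smallest adjusted p, at most 3 per list and family of comparisons. The rule for likeness counted 7 globins, of which 6 had a row.

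limma 3.58.1 (R 4.3.3, trend) was fitted to log2(value + 1) of 4 against 4 libraries, for genes at 1 or more in at least 4, with Benjamini-Hochberg adjustment at 0.05. It was tested on simulated data. Alternatives were a pseudocount of 0.1, no filter, upper-quartile scaling, edgeR 4.0.16 on recovered reads, 1 fit of all 36 libraries, a replicate block and leaving out each library. All 4 same-numbered pairs had deviations that correlated over 0.1 (0.543 to 0.700) only for NP and SP at E12.5, and the block changed no member's call there. The ex-fetu libraries are litters and the derived ones culture batches, so p-values measure the spread between these. A withheld gene is not reported here.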

Additional observations from a re-analysis of the deposited data

Results flagged for a closer look

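In 16 of the 66 groups of 4 values tested, a library lay far from the other 3 by Dixon's criterion. Chance gives about 1 in 20 only for separate groups of normally distributed values. Here the values were not log-transformed, the genes moved together and the 16 came from 5 libraries. The count was therefore not set against chance. The libraries numbered 4 at E11.5 gave 9 of them. In NP this library was the highest for Hbb-y at 44.4 CPM, Hba-x at 18.7, Hba-a1 at 4.72, Hbb-bs at 1.61, Slc4a1 at 1.85 and Alas2 at 0.650. In SP it was the highest for Hbb-y at 989.6, Hba-a1 at 99.6 and Hbb-bt at 9.94.

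In E12.5 NP, library 2 was the highest for Hbb-y at 53.0 CPM, Hba-x at 9.44, Hba-a1 at 5.42 and Hbb-bh1 at 2.06. In E12.5 UB, library 1, which also held nephron, stromal and endothelial markers, was the highest for Hbb-bh1 at 6.26 and for the Hbb-bh1 share of primitive beta-type values at 9.94%. In E11.5 UB, library 2 was the lowest for Hbb-bh1 at 0.161.

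The change from E11.5 to the stem cell derived cells differed between cell types by an interaction term in limma. These log2 differences follow from the higher starting level in SP, since the derived libraries were at or near 0, and 17.4% and 24.2% of all genes were called higher in the same terms. For NP minus SP they were 3.83 for Hbb-y (limma adjusted p = 0.0073), 3.49 for Hba-x, 3.21 for Hbb-bh1, 2.76 for Hba-a1, 2.40 for Slc4a1 and 2.24 for Hbb-bs. Hbb-bs (limma adjusted p = 0.049) lost its call under upper-quartile scaling (0.051) and without any of NP libraries 1 to 3, SP library 3 or a derived library, up to 0.089. Hba-a1 (limma adjusted p = 0.030) lost it without NP library 1, 2 or 3, up to 0.058. For UB minus SP they were 3.64 for Hba-x (limma adjusted p = 0.0028), 3.48 for Hbb-y, 3.20 for Hbb-bh1, 2.71 for Hba-a1 and 2.29 for Slc4a1. Hbb-bs was not called there (limma adjusted p = 0.052), but was with a pseudocount of 0.1 (0.044) and with the replicate block (0.041).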

How the results depend on the processing

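The direction and call of the 64 member comparisons other than UB against NP were kept under a pseudocount of 0.1 and upper-quartile scaling. Without the low-value filter, 18 members were called in the derived cells against E11.5 in place of 9, and 1 in place of 0 among the derived cell types, where more genes were tested. Between E11.5 and E12.5, 0 were called, against 3 in 1 fit of all 36 libraries, 1 (Hbb-bs in SP, limma adjusted p = 0.028) with the replicate block and 0 to 3 when a library was left out. The block changed no other call of a member comparison, and its numbers pair only NP and SP at E12.5. The cell type difference in the change from E11.5 to E12.5 called 0, and 0 to 1 when a library was left out. At E11.5 the count of 12 calls between cell types ran from 10 to 12, and the count of 11 differences in the change to the derived cells from 9 to 12. Counts at E12.5 (16) and for the derived cells against E11.5 (9) and E12.5 (11) did not move when a library was left out.

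Log2 differences between the stages turned sign near 0 when a library was left out. In UB, Hbb-y (-0.11, and 0.26 by edgeR) ran from -0.77 to 0.44, Hba-a1 (0.21) from -0.089 to 0.63 and Slc4a1 (-0.07) from -0.33 to 0.12. In NP, Hbb-y (-0.54) ran from -1.42 to 0.082. In SP, Hbb-bh1 (-0.31) ran from -0.82 to 0.43 and Slc4a1 (0.53) from -0.020 to 1.21. Between UB and NP at E11.5, where no alternative called a member, Hba-x ran from -0.46 to 0.47, Hbb-bh1 from -0.31 to 0.47, Hba-a1 from -0.20 to 0.46 and Hbb-y from -0.022 to 0.97 over all alternatives. The cause was not tested. Fold bounds and levels without 1 library, and list counts without E12.5 UB library 1, were added after the data were seen and stand beside their results. UB and NP shares rest on few reads, so small differences there were not detectable at this depth.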
